A study of Saccharomyces cerevisiae with 12 samples.

Results

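The rows described here are the small nucleolar and small nuclear RNAs of budding yeast, taken as every row whose identifier starts with snR and whose FPKM was above 0 in at least 1 library. They numbered 72 of the 81 snR rows listed, in tables of 7126 rows. The tables come from RNA sequencing of 2 Saccharomyces cerevisiae strains in 12 libraries, with 3 biological replicates in each of 4 groups. MATα-playing-a cells (strain LBHY29) were either stimulated with 10 nM α-factor for 2 h or left unstimulated, and MATa cells (strain MP 384) were treated in the same 2 ways. All cultures grew in YPD with 0.1% BSA at 30 °C. α-factor is the mating pheromone that α cells secrete and that a cells answer with cell-cycle arrest and mating. The labels give no further alleles of either strain and do not say how the MATα-playing-a strain was built. In the MATα-playing-a libraries the α-cell genes STE3, MF(ALPHA)1 and MF(ALPHA)2 were listed at 0 throughout, and STE2, the α-factor receptor gene, had 1878, 1651 and 1937 FPKM in stimulated and 633, 550.2 and 512 FPKM in unstimulated cells. In MATa libraries STE2 had 8483, 8479 and 7759 FPKM in stimulated and 3600.3, 4169 and 3254 FPKM in unstimulated cells. BAR1, the protease gene for α-factor, was listed at 0 there. In MATα-playing-a cells BAR1 averaged 50.72 FPKM when stimulated and 27.99 FPKM when unstimulated. The a-cell genes MFA1, MFA2 and STE6 were, like STE2, lower in MATα-playing-a than in MATa cells. Stimulated and unstimulated means were 4573 and 3313 FPKM against 30811 and 7573 FPKM in MATa cells for MFA1. They were 152 and 167 against 17421 and 7557 FPKM for MFA2 and 31.9 and 25.6 against 627 and 521 FPKM for STE6. Genes of α cells were present in MATa libraries: STE3 lay between 8.40 and 25.6 FPKM and MF(ALPHA)2 between 67.9 and 109 FPKM in all 6, and MF(ALPHA)1 had 7.96, 8.52 and 3.64 FPKM in unstimulated ones and was listed at 0 in stimulated ones. FIG1, a pheromone-induced gene, had 11125 ± 759.9 FPKM in stimulated and 12.3 ± 1.38 FPKM in unstimulated MATα-playing-a cells, and 10661 ± 789 FPKM in stimulated and 17.4 ± 5.32 FPKM in unstimulated MATa cells (SD, n = 3 each).

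Small nucleolar RNAs guide the modification and cutting of ribosomal RNA in the nucleolus. Those with C and D boxes bind Nop56, Nop58, Snu13 and the methyltransferase Nop1, and pair with ribosomal RNA so that the base opposite a fixed position before the D box receives a 2′-O-methyl group. Those with H and ACA boxes bind Nhp2, Nop10, Gar1 and the pseudouridine synthase Cbf5, which turns the target uridine into pseudouridine. A few of either class, among them U3, U14, snR30 and snR10, are needed for cutting the precursor that gives 18S rRNA. The small nuclear RNAs U1, U2, U4, U5 and U6 form the spliceosome together with Sm or Lsm proteins. In yeast most snoRNAs come from genes or gene clusters of their own, and a few lie in introns of protein genes.

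The members were 39 of 47 listed C/D box rows, all 29 H/ACA box rows and 4 of 5 snRNA rows. The snRNA rows were U1 (snR19), U4 (snR14) and the long and short forms of U5 (snR7-L and snR7-S, which overlap over 179 nt). U6 (snR6) and the 8 C/D rows snR52, snR53, snR56, snR73, snR74, snR75, snR78 and snR79 were listed at 0 in all 12 libraries. All 81 snR rows had the coordinates of the R64 reference assembly, and the class of each equalled that given in its annotation. Among the members 8 lay inside an intron of a protein gene, 5 overlapped another row and 59 overlapped none.

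The sequences of the rows on which the results turn follow, read from the R64 genome of RefSeq at the rows' own coordinates, 5′ to 3′ in DNA letters. For the C/D box rows, capitals mark the C box TGATGA, the D box CTGA near the 3′ end and the stretch that pairs with rRNA, where each was found. No TGATGA was found in snR76 and no pairing stretch in snR128. In snR39, snR59 and snR63 the stretch lies before the marked D box, and in snR66, snR76 and snR18 it lies before an inner box left in lower case, ctga in snR66 and snR76 and atga in snR18. A stretch was taken as the longest run of at least 10 bases ending at most 2 bases before such a box, or before 1 of 9 single-base variants of it, that was the exact complement of 18S or 25S rRNA. snR39 and snR59 are shown because both are annotated to methylate A807 of 25S rRNA and they lie in the introns of paralogous genes, snR66 because it was listed at 0 in every stimulated library, snR63 for its large fall, snR76 because it did not fall, snR18 for its high level and snR128 as the essential U14.
snR39 (chrVII:365163-365251, minus strand): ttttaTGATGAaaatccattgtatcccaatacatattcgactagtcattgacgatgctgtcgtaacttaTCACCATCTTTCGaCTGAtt
snR59 (chrXVI:173827-173904, plus strand): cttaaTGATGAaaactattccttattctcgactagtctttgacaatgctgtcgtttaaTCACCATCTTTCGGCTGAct
snR66 (chrXIV:586090-586175, plus strand): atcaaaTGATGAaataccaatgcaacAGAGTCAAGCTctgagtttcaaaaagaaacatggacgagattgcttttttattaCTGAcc
snR63 (chrIV:323217-323471, minus strand): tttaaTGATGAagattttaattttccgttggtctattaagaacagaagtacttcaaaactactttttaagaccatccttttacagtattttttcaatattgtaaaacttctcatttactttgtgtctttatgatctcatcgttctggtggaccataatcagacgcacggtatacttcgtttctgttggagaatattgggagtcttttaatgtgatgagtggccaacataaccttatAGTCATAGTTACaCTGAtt
snR76 (chrXIII:297725-297833, plus strand): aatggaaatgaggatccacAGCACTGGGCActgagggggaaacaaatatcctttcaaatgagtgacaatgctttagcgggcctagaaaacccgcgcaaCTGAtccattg
snR18 (chrI:142367-142468, plus strand): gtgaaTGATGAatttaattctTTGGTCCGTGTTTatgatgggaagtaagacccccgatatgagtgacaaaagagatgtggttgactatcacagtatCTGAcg
snR128 (chrX:139566-139691, minus strand): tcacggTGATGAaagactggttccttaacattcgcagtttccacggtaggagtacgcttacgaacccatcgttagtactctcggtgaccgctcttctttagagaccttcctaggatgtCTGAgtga
In the next set capitals mark the ACA near the 3′ end of an H/ACA row and, in U1, the bases that pair with the 5′ splice site. snR49 is shown whole; snR30 and snR42, the H/ACA rows with the largest fall and the largest rise among rows above 0 in every library, are shown by their last 120 bases, and U1 (snR19) by its first 60.
snR49 (chrXIV:716120-716284, plus strand): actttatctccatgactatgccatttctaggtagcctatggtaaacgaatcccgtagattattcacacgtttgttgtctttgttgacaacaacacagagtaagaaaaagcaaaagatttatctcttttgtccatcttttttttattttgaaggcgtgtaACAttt
snR30 (chrXII:199270-199389, plus strand): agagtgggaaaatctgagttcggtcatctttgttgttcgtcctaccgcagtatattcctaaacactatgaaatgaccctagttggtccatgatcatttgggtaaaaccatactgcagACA
snR42 (chrXI:559016-559135, minus strand): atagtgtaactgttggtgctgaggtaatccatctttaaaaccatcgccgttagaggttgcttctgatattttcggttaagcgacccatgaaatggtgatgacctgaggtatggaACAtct
snR19 (chrXIV:230613-230672, minus strand): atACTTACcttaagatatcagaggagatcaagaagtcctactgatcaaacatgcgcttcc

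The letters of both boxes were found in most C/D members, and the ACA in a part of the H/ACA members. The H box was not searched. TGATGA within the first 25 bases together with CTGA within the last 20 was found in 29 of 39 C/D members (74.4%), against 0.0716% of 243124 genome windows of 100 nt on both strands. ACA exactly 3 bases before the end was found in 14 of 29 H/ACA members (48.3%), against 1.72% of the same windows. Pairing stretches of 10 to 16 bases were found for 24 of 39 C/D members, and for 23 of them the rRNA base opposite the 5th base before the box equalled an annotated target. snR39 and snR59 were identical at 74.2% of aligned positions. The U3 genes snR17a and snR17b were identical at 81.5% and shared a run of 77 nt, so reads from that run cannot be assigned to either. Apart from the overlapping U5 rows snR7-L and snR7-S, no other pair of members had a common run of 20 nt or more.

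The snR rows took 0.0608% to 0.147% of the summed FPKM of a library. A value of 0 was common: 304 of the 864 member values were 0, and the smallest value above 0 was 10.1 FPKM. Zeros followed length. They made up 65.4% of values in snR rows of 70 to 99 nt, 58.3% at 100 to 129 nt, 37.7% at 130 to 199 nt, 14.1% at 200 to 299 nt and 1.85% at 300 nt and above. In rows other than snR and tRNA the shares were 55.1%, 43.1%, 36.0%, 17.9% and 5.05% over the same lengths. RNAs that every cell needs were also listed at 0, U6 and 296 of 299 tRNA rows among them, so a 0 is reported here only as listed. The labels name total RNA and do not say whether the libraries were selected for poly(A) or for size, the reads' strand is not known, and no file gives read totals.

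Members above 0 numbered 42, 46 and 39 in stimulated and 44, 58 and 68 in unstimulated MATα-playing-a libraries, and 29, 32 and 31 in stimulated and 64, 49 and 58 in unstimulated MATa libraries. The stimulated MATa libraries had fewer members above 0 than any other library; in MATα-playing-a cells the ranges of the stimulated and unstimulated libraries overlapped. The zeros of other rows did not divide the groups in this way: rows at 0 over the whole table numbered 598, 616 and 621 in stimulated and 722, 596 and 574 in unstimulated MATα-playing-a libraries, and 752, 716 and 681 in stimulated and 624, 723 and 578 in unstimulated MATa libraries. Above 0 in all 12 libraries were 23 members, of which 7 were C/D, 15 H/ACA and 1, U1, an snRNA. Their summed FPKM was 2803, 2814 and 2787 in stimulated and 4523, 3869 and 4938 in unstimulated MATα-playing-a libraries, and 2657, 2664 and 2411 in stimulated and 5103, 4652 and 4705 in unstimulated MATa libraries. Each stimulated library lay below each unstimulated one.

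**Figure D1:**
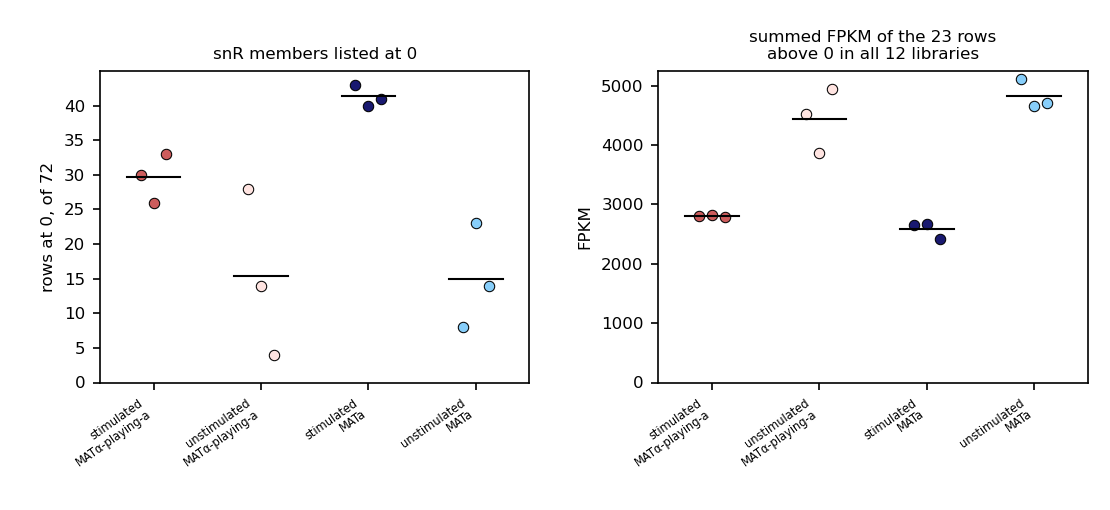
Number of the 72 members listed at 0 (left) and summed FPKM of the 23 members above 0 in all 12 libraries (right), 1 point per library; bars are means of 3 libraries. Stimulated MATa libraries had 40 to 43 members at 0, and the summed FPKM was lower in every stimulated library than in every unstimulated one.

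**Figure D2:**
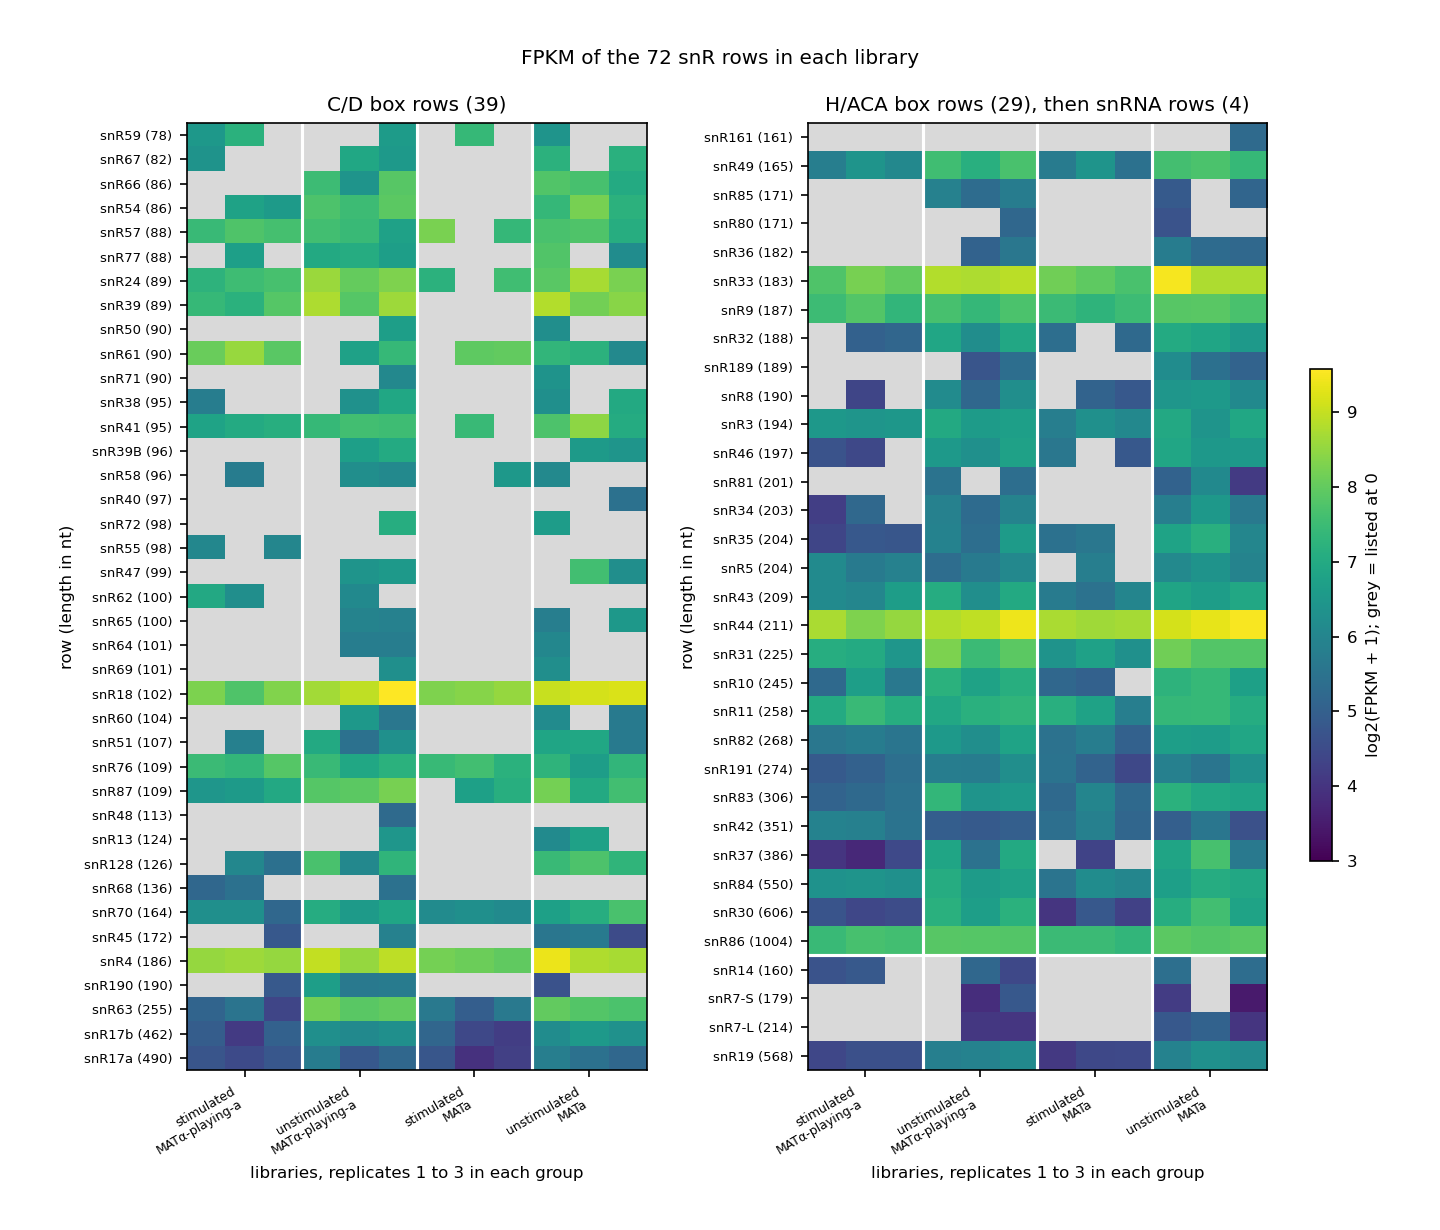
Level of each member in each library as log2(FPKM + 1), with C/D box rows on the left and H/ACA box and snRNA rows on the right, ordered by length within a class; grey marks a value listed at 0. Grey cells gather among the short rows and in the stimulated libraries, and snR33, snR44, snR18 and snR4 are bright throughout.

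The first question was how these RNAs responded to α-factor in each strain. After α-factor, 28 of the 72 members (38.9%) were lower and 2 higher in MATα-playing-a cells, and 38 of 72 (52.8%) were lower and none higher in MATa cells (limma on log2(FPKM + 1), Benjamini-Hochberg adjusted p below 0.05 over 6608 rows; at an unadjusted p below 0.05, 38 were lower and 2 higher in MATα-playing-a cells and 47 lower and 0 higher in MATa cells). Over all rows tested, 39.1% were lower and 29.8% higher in MATα-playing-a cells, and 38.1% were lower and 28.5% higher in MATa cells. The share lower among members was thus at the background of all rows in MATα-playing-a cells and above it in MATa cells, and the share higher was far below it in both. Among other rows under 200 nt, 24.3% were lower in either strain, with 19.7% higher in MATα-playing-a and 13.3% higher in MATa cells. The median log2 difference of the members was -1.46 in MATα-playing-a and -2.17 in MATa cells, against -0.10 and -0.09 over all rows; these medians include rows listed at 0 and depend on the constant added before the logarithm. Without replicate 3 of unstimulated MATα-playing-a cells the first median was -0.92 and 19 members were lower, and without replicate 1 of the stimulated ones 1 member was higher in place of 2. Lower in both strains were 25 members, which is 89.3% of those lower in MATα-playing-a and 65.8% of those lower in MATa cells. In bulk RNA, fewer cells holding an RNA and less of it per cell cannot be told apart.

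For the 23 members above 0 in all 12 libraries, which do not rest on zeros, 15 were lower and 1 higher in MATα-playing-a cells and 21 lower and none higher in MATa cells. Of all rows above 0 in all libraries, 40.7% were lower and 30.5% higher in MATα-playing-a cells, and 39.2% lower and 29.5% higher in MATa cells. The median log2 difference of the 23 members was -0.83 in MATα-playing-a and -0.98 in MATa cells. For all rows above 0 in all libraries it was -0.105 and -0.0906. By class, 17 of 29 H/ACA rows (58.6%), 9 of 39 C/D rows (23.1%) and 2 of 4 snRNA rows were lower in MATα-playing-a cells. In MATa cells 23 (79.3%), 13 (33.3%) and 2 of them were lower. Over all rows tested the shares were 39.1% and 38.1%, so C/D rows showed no excess of lower calls in either strain. The classes differ in length and zeros: 31 of the 39 C/D members and none of the 29 H/ACA members are under 130 nt. Of the 22 members of at least 200 nt, 14 were lower and 1 higher in MATα-playing-a and 21 lower in MATa cells; of the 50 shorter ones, 14 were lower and 1 higher in MATα-playing-a and 17 lower in MATa cells. By target, 14 of 42 rows (33.3%) that guide modification of 25S rRNA alone were lower in MATα-playing-a cells. So were 6 of 16 (37.5%) that guide 18S rRNA alone, and both shares were below the 39.1% of all rows and near it. Of the rows that guide both rRNAs, 4 of 7 (57.1%) were lower, a share above that of all rows. In MATa cells 18 (42.9%), 11 (68.8%) and 4 (57.1%) were lower.

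**Figure D3:**
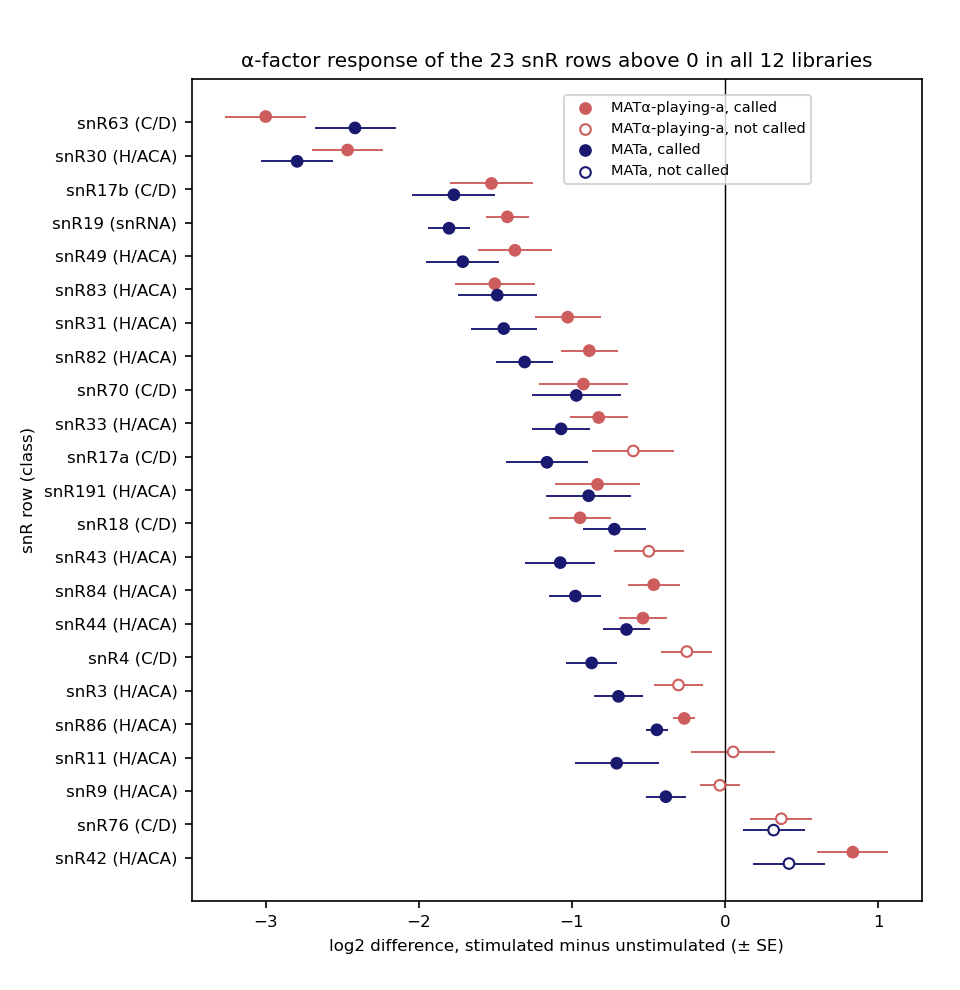
Log2 difference, stimulated minus unstimulated, of the 23 members above 0 in all 12 libraries, with standard errors from limma; red points are MATα-playing-a and blue points MATa cells, filled where the adjusted p was below 0.05. Nearly all points lie left of 0, snR63 and snR30 farthest, and snR76 and snR42 lie right of 0 in both strains.

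Among the RNAs needed for cutting of pre-rRNA, snR30, U3, U14 and snR10 were lower in at least 1 strain. snR30, an H/ACA RNA that acts in 18S processing and modifies no base, had 25.2, 20.2 and 22.2 FPKM in stimulated and 143, 102 and 146 FPKM in unstimulated MATα-playing-a cells. It had 15.1, 27.04 and 18.5 FPKM in stimulated and 137, 189.8 and 111 FPKM in unstimulated MATa cells. Stimulated and unstimulated libraries stood far apart in both strains, with means 5.78-fold lower in stimulated MATα-playing-a cells (log2 difference -2.47 ± 0.23 SE, limma adjusted p = 3e-06) and 7.22-fold lower in stimulated MATa cells (-2.80 ± 0.23, adjusted p = 1.15e-06). U3, which pairs with the pre-rRNA for its first cuts, comes from a pair of genes with introns. snR17b had 29.7, 16.3 and 31.7 FPKM in stimulated and 76.4, 68.7 and 75.9 FPKM in unstimulated MATα-playing-a cells. It had 35.1, 20.4 and 17.2 FPKM in stimulated and 72.7, 92.97 and 79.9 FPKM in unstimulated MATa cells. Its groups did not overlap, with log2 differences of -1.53 ± 0.27 in MATα-playing-a (limma adjusted p = 0.000381) and -1.77 ± 0.27 in MATa cells (adjusted p = 0.000131). snR17a had 25.6, 21.2 and 26.5 FPKM in stimulated and 53.5, 27.2 and 35.8 FPKM in unstimulated MATα-playing-a cells. It had 26.03, 14.2 and 18.1 FPKM in stimulated and 54.8, 42.4 and 35.5 FPKM in unstimulated MATa cells. This copy was lower in MATa cells (-1.16 ± 0.27, adjusted p = 0.00242), while in MATα-playing-a cells the groups came close, between 26.5 and 27.2 FPKM, and the difference of -0.60 ± 0.27 missed the threshold (limma adjusted p = 0.0655). snR17a overlaps IRC13 on the same strand over 78 nt, and the parts of the copies' reads that fall in their shared run cannot be told apart.

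U14 (snR128), a C/D RNA that acts in 18S processing and also guides methylation of C414, had 0, 64.9 and 42.4 FPKM in stimulated and 207, 66.8 and 156 FPKM in unstimulated MATα-playing-a cells. In MATa cells it was listed at 0 in all stimulated libraries and had 176, 211 and 157 FPKM in unstimulated ones. It was lower in both strains (limma adjusted p = 0.0333 in MATα-playing-a and 0.000187 in MATa cells), and no fold is given against libraries at 0. The call in MATα-playing-a cells was lost in 5 alternatives, 2 of them without replicate 1 or 3 of the unstimulated cells (limma adjusted p = 0.0934 and 0.0797). snR10, an H/ACA RNA of 18S processing that also guides U2923 of 25S rRNA, had 36.9, 101 and 48.5 FPKM in stimulated and 146, 109.6 and 139 FPKM in unstimulated MATα-playing-a cells. It had 35.8, 32.2 and 0 FPKM in stimulated and 153, 169.7 and 105 FPKM in unstimulated MATa cells. It was lower in MATa cells (limma adjusted p = 0.00947), where 1 stimulated library was at 0, and not past the threshold in MATα-playing-a cells (log2 difference -1.19 ± 1.07, adjusted p = 0.343). Stimulated and unstimulated values did not overlap in MATα-playing-a cells, but the spread shared by all groups includes that 0. The difference between the strains' responses did not pass (limma adjusted p = 0.499). Of snR10's 245 nt, 216 overlap the row YGL088W on the same strand. snR4, which guides acetylation of C1280 in 18S rRNA, had 373, 391 and 369 FPKM in stimulated and 504, 367 and 488 FPKM in unstimulated MATα-playing-a cells. It had 295, 272 and 252 FPKM in stimulated and 672, 442 and 418 FPKM in unstimulated MATa cells. It was lower in MATa cells and did not pass in MATα-playing-a cells (-0.87 ± 0.17, limma adjusted p = 0.000726; MATα-playing-a -0.25 ± 0.17, adjusted p = 0.206), and the difference between the strains' responses did not pass (adjusted p = 0.374).

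The spliceosomal rows had low levels. U1 (snR19), which recognises the 5′ splice site, was the only one above 0 throughout, with 20.3, 23.1 and 23.4 FPKM in stimulated and 56.7, 58.9 and 68.9 FPKM in unstimulated MATα-playing-a cells. It had 16.1, 20.4 and 20.8 FPKM in stimulated and 59.6, 77.7 and 70.3 FPKM in unstimulated MATa cells. No stimulated library reached an unstimulated one, and the means were 2.76-fold lower in stimulated MATα-playing-a cells (log2 difference -1.42 ± 0.14, limma adjusted p = 3.8e-06) and 3.62-fold lower in stimulated MATa cells (-1.80 ± 0.14, adjusted p = 6.14e-07). U5-L (snR7-L) was at 0 in all 6 stimulated libraries, with 0, 15.8 and 15.5 FPKM in unstimulated MATα-playing-a and 26.8, 32.4 and 15.3 FPKM in unstimulated MATa cells (limma adjusted p = 0.0223 and 0.000968). Its call in MATα-playing-a cells was lost in 3 alternatives, 2 of them without unstimulated replicate 2 or 3 (limma adjusted p = 0.101 for each). U5-S (snR7-S) was likewise at 0 in all 6 stimulated libraries, with 0, 13.6 and 27.2 FPKM in unstimulated MATα-playing-a and 16.9, 0 and 10.1 FPKM in unstimulated MATa cells, and did not pass (adjusted p = 0.0659 and 0.103 by limma). The U5 rows overlap over 179 nt, and reads within that stretch cannot be told apart between them. U4 (snR14), which holds U6 before the spliceosome is activated, had 24.7, 27.6 and 0 FPKM in stimulated and 0, 35.4 and 20.7 FPKM in unstimulated MATα-playing-a cells. It had 0, 0 and 0 FPKM in stimulated and 41.6, 0 and 39.96 FPKM in unstimulated MATa cells. Its values overlapped in MATα-playing-a cells, and no difference passed (limma adjusted p = 0.988 and 0.0931). U2, whose row is named LSR1 and is no member, had 47.4 ± 7.41 FPKM in stimulated and 61.2 ± 6.74 in unstimulated MATα-playing-a cells, and 45.8 ± 7.42 in stimulated and 50.9 ± 1.67 in unstimulated MATa cells (SD, n = 3 each), a small fall in MATα-playing-a cells (-0.37 ± 0.14, limma adjusted p = 0.038) and none past the threshold in MATa cells (adjusted p = 0.337).

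Among guides of rRNA modification, snR63 showed the largest fall of a row above 0 in all libraries in MATα-playing-a cells and the largest but that of snR30 in MATa cells. snR63, which guides methylation of A2256 in 25S rRNA, had 34.05, 45.5 and 19.7 FPKM in stimulated and 287, 236 and 253 FPKM in unstimulated MATα-playing-a cells. It had 49.6, 30.2 and 49.6 FPKM in stimulated and 254, 227 and 209 FPKM in unstimulated MATa cells. The means were 7.82-fold lower in stimulated MATα-playing-a cells (log2 difference -3.002 ± 0.26, limma adjusted p = 1.66e-06) and 5.33-fold lower in stimulated MATa cells (-2.42 ± 0.26, adjusted p = 9.4e-06). snR49, an H/ACA RNA with target uridines in both large rRNAs, had 54.8, 84.4 and 66.5 FPKM in stimulated and 188, 141 and 207 FPKM in unstimulated MATα-playing-a cells. It had 52.3, 84.4 and 42.5 FPKM in stimulated and 196, 209 and 168 FPKM in unstimulated MATa cells. snR83, with the 18S targets U1290 and U1415, had 33.01, 37.2 and 43.4 FPKM in stimulated and 164, 84.4 and 92.7 FPKM in unstimulated MATα-playing-a cells. It had 36.8, 62.98 and 37.00 FPKM in stimulated and 146, 122 and 112 FPKM in unstimulated MATa cells. In both rows every stimulated library was below every unstimulated one of its strain, and their log2 differences were -1.37 and -1.50 in MATα-playing-a and -1.71 and -1.49 in MATa cells. snR31, which guides U999 of 18S rRNA, had 136, 129.97 and 87.5 FPKM in stimulated and 309, 179 and 241 FPKM in unstimulated MATα-playing-a cells. It had 82.4, 107 and 78.3 FPKM in stimulated and 282, 224 and 226 FPKM in unstimulated MATa cells. It averaged 2.06-fold lower in stimulated MATα-playing-a and 2.73-fold lower in stimulated MATa cells (limma adjusted p = 0.00124 and 0.000109). snR82, with targets in 25S rRNA, had 47.6, 53.6 and 46.2 FPKM in stimulated and 92.4, 74.6 and 111 FPKM in unstimulated MATα-playing-a cells. It had 43.7, 54.3 and 31.9 FPKM in stimulated and 103, 99.2 and 118 FPKM in unstimulated MATa cells, lower in both strains (-0.89 and -1.31).

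snR33, snR70, snR84 and snR86 were lower in both strains, with log2 differences closer to 0 than those of snR63 in the same strain. snR33, a guide of U1042 in 25S rRNA, had 217, 299 and 256 FPKM in stimulated and 449, 435 and 477 FPKM in unstimulated MATα-playing-a cells. It had 285, 245 and 207 FPKM in stimulated and 718, 433 and 434 FPKM in unstimulated MATa cells. Its log2 difference was -0.83 ± 0.19 in MATα-playing-a (limma adjusted p = 0.00239) and -1.07 ± 0.19 in MATa cells (adjusted p = 0.000418). snR70, the guide of C1639 in 18S rRNA, had 76.1, 75.98 and 35.97 FPKM in stimulated and 133, 95.8 and 115 FPKM in unstimulated MATα-playing-a cells. It had 70.5, 77.1 and 70.3 FPKM in stimulated and 105, 136 and 205 FPKM in unstimulated MATa cells. snR84, which guides U2266 of 25S rRNA, had 81.4, 83.7 and 77.8 FPKM in stimulated and 134, 96.8 and 109 FPKM in unstimulated MATα-playing-a cells. It had 45.5, 73.1 and 64.3 FPKM in stimulated and 104, 134 and 121 FPKM in unstimulated MATa cells. Both passed in both strains, with log2 differences of -0.93 for snR70 and -0.47 for snR84 in MATα-playing-a and -0.97 and -0.98 in MATa cells. The call of snR84 in MATα-playing-a cells was lost in 7 alternatives, among them each that left out replicate 1, 2 or 3 of the stimulated cells (limma adjusted p = 0.0602, 0.0511 and 0.0745) or replicate 1 or 3 of the unstimulated ones (0.118 and 0.0522). snR86, the longest row at 1004 nt and a guide of U2314 in 25S rRNA, had the smallest fall that passed in both, with 175, 203 and 192 FPKM in stimulated and 231, 229 and 225 FPKM in unstimulated MATα-playing-a cells. It had 178, 178 and 159 FPKM in stimulated and 242, 224 and 236 FPKM in unstimulated MATa cells. Its libraries agreed closely within each group, and the log2 differences were -0.27 ± 0.07 (limma adjusted p = 0.0057) in MATα-playing-a and -0.45 ± 0.07 (adjusted p = 0.000176) in MATa cells.

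**Figure D4:**
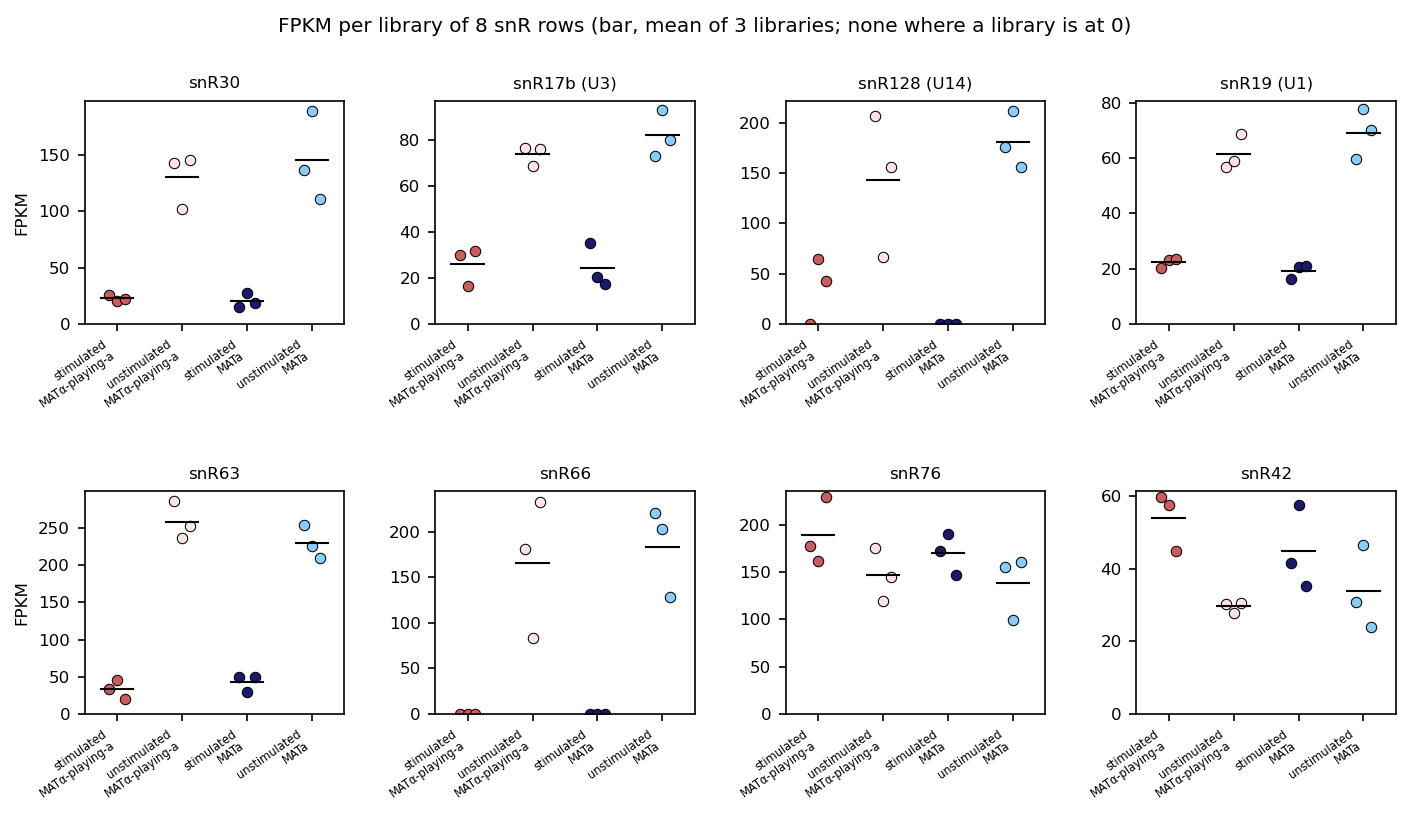
FPKM of 8 members in each library; dots are libraries and bars the mean of 3, drawn where no library of the group was at 0. snR30, snR17b, snR128, snR19 and snR63 are low in stimulated libraries of both strains, snR66 is at 0 in all 6 of them, and snR76 and snR42 show no fall.

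A few guides did not fall. snR42, the guide of U2975 in 25S rRNA, had 59.6, 57.5 and 44.8 FPKM in stimulated and 30.4, 27.9 and 30.5 FPKM in unstimulated MATα-playing-a cells. It had 41.6, 57.5 and 35.1 FPKM in stimulated and 30.7, 46.6 and 23.99 FPKM in unstimulated MATa cells. It was 1.82-fold higher in stimulated MATα-playing-a cells, where the groups did not overlap (log2 difference 0.84 ± 0.23, limma adjusted p = 0.00752), and overlapped between the groups in MATa cells (0.42 ± 0.23, adjusted p = 0.134). KTR2 lies 61 nt from snR42 on the opposite strand and rose as well. Its log2 differences were 2.63 in MATα-playing-a (limma adjusted p = 2.54e-07) and 2.26 in MATa cells (adjusted p = 8.27e-07). TFA2, 299 nt away on the other side, passed in neither strain. The reads' strand is not known, and whether reads from KTR2 were counted in snR42 was not tested. Both genes were named after their values were seen. snR76, which guides C2197 of 25S rRNA, had 178, 162 and 229 FPKM in stimulated and 175, 119.8 and 145 FPKM in unstimulated MATα-playing-a cells. It had 172, 190.5 and 147 FPKM in stimulated and 155, 99.8 and 160.2 FPKM in unstimulated MATa cells. These values overlapped in both strains, and the differences of 0.37 ± 0.20 in MATα-playing-a (limma adjusted p = 0.127) and 0.32 ± 0.20 in MATa cells (adjusted p = 0.187) did not pass. snR9, snR11, snR3 and snR43, all H/ACA guides of 25S rRNA, fell in MATa cells (log2 differences -0.39, -0.71, -0.70 and -1.08) and did not pass in MATα-playing-a cells (-0.03, 0.05, -0.30 and -0.50). snR11, for example, had 128, 174 and 137 FPKM in stimulated and 122, 143 and 156 FPKM in unstimulated MATα-playing-a cells. It had 141, 109 and 54.9 FPKM in stimulated and 164, 169 and 134 FPKM in unstimulated MATa cells, and its stimulated and unstimulated values overlapped in both strains. Its call in MATa cells was lost in 9 alternatives, among them each that left out stimulated replicate 3 or unstimulated replicate 1 or 2 of MATa cells (limma adjusted p = 0.122, 0.0918 and 0.099). snR9 had 181, 226 and 161 FPKM in stimulated and 201, 166 and 209.97 FPKM in unstimulated MATα-playing-a cells. It had 178, 154 and 179.8 FPKM in stimulated and 231, 235 and 205 FPKM in unstimulated MATa cells. The call of snR9 in MATa cells was lost in 5 alternatives, 3 of them without stimulated replicate 2 or unstimulated replicate 1 or 2 of MATa cells (limma adjusted p = 0.0777, 0.0553 and 0.061). snR3 had 90.8, 84.6 and 87.7 FPKM in stimulated and 126, 97.1 and 104 FPKM in unstimulated MATα-playing-a cells. It had 55.5, 77.96 and 66.05 FPKM in stimulated and 123, 84.2 and 119 FPKM in unstimulated MATa cells. snR43 had 70.2, 63.98 and 100.2 FPKM in stimulated and 133, 75.5 and 127 FPKM in unstimulated MATα-playing-a cells. It had 52.8, 43.6 and 62.7 FPKM in stimulated and 113, 101 and 122 FPKM in unstimulated MATa cells. For none of the 4 did the difference between the strains' responses pass (limma adjusted p = 0.445, 0.44, 0.485 and 0.473), so a response of a single strain is not shown.

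Other called rows were listed at 0 in some or all libraries of a group, and their size cannot be given as a fold. In the stimulated libraries 21 members were at 0 throughout MATα-playing-a and 35 throughout MATa cells, against 3 in unstimulated MATα-playing-a and 4 in unstimulated MATa cells. No such count was made over all rows or over other rows of like length, so these are not read as particular to snR rows. snR66, the guide of U2417 in 25S rRNA, was at 0 in all 6 stimulated libraries and had 181, 83.6 and 233 FPKM in unstimulated MATα-playing-a and 220.1, 203 and 128 FPKM in unstimulated MATa cells (limma adjusted p = 1.14e-08 and 8.78e-09). snR51, which guides A100 of 18S and U2729 of 25S rRNA, had 0, 57.8 and 0 FPKM in stimulated and 126, 43.2 and 77.2 FPKM in unstimulated MATα-playing-a cells. MATa cells gave 0, 0 and 0 FPKM when stimulated and 116, 119 and 50.3 FPKM when unstimulated. It was lower in both strains (adjusted p = 0.00934 and 0.000706 by limma). The H/ACA rows snR85, snR36, snR81 and snR189 were at 0 in all 6 stimulated libraries; in unstimulated libraries snR85 had 58.2, 38.8 and 52.9 FPKM in MATα-playing-a and 28.2, 0 and 34.3 FPKM in MATa cells, and snR189 had 0, 25.5 and 40.5 FPKM and 72.04, 41.8 and 32.9 FPKM. snR36 had 0, 32.5 and 47.5 FPKM in unstimulated MATα-playing-a and 53.6, 38.04 and 36.3 FPKM in unstimulated MATa cells, and snR81 had 44.4, 0 and 40.4 FPKM and 32.4, 68.05 and 16.4 FPKM. All 4 were lower in both strains, though each was at 0 in at least 1 unstimulated library. In the strain with that 0 each call was lost in 3 alternatives, 2 of them without 1 unstimulated replicate. For snR85 in MATa cells the limma adjusted p was then 0.0709 and 0.0748. In MATα-playing-a cells it was 0.0678 and 0.0728 for snR36, 0.0811 and 0.0828 for snR81, and 0.072 and 0.0797 for snR189. snR34, a guide of U2826 and U2880 in 25S rRNA, was lower in both strains, at 17.5, 36.1 and 0 FPKM in stimulated and 58.04, 38.2 and 60.3 FPKM in unstimulated MATα-playing-a cells and at 0 in stimulated MATa cells, against 55.4, 90.02 and 49.3 FPKM in unstimulated ones. Its call in MATα-playing-a cells was lost in 6 alternatives, 3 of them without replicate 1, 2 or 3 of the unstimulated cells (limma adjusted p = 0.0851, 0.0577 and 0.09). snR190, snR8 and snR46 passed in MATα-playing-a and not in MATa cells, with no difference of responses past the threshold; snR8, for example, had 0, 19.8 and 0 FPKM in stimulated and 70.7, 35.9 and 75.7 FPKM in unstimulated MATα-playing-a cells. It had 0, 33.3 and 26.9 FPKM in stimulated and 86.2, 93.6 and 68.7 FPKM in unstimulated MATa cells. snR46 had 24.8, 20.6 and 0 FPKM in stimulated and 91.3, 78.03 and 107 FPKM in unstimulated MATα-playing-a cells. It had 47.6, 0 and 27.1 FPKM in stimulated and 117, 90.1 and 92.8 FPKM in unstimulated MATa cells. Its call was lost in 11 alternatives, among them each that left out stimulated replicate 3 or unstimulated replicate 1, 2 or 3 of MATα-playing-a cells (limma adjusted p = 0.188, 0.0855, 0.0783 and 0.0964). snR55 was called higher in MATα-playing-a cells (limma adjusted p = 0.0219) from 2 libraries alone, with 64.5, 0 and 63.3 FPKM in stimulated cells and 0 in the other 9 libraries of the series. Without replicate 1 or 3 of the stimulated cells the call was lost (adjusted p = 0.116 and 0.118 by limma).

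The remaining 28 members, 22 C/D and 6 H/ACA rows, were above 0 in 1 to 11 libraries each, at 12.6 to 379 FPKM where above 0. In MATα-playing-a cells none of them passed (limma; 7 were lower and 0 higher at an unadjusted p below 0.05), and in MATa cells 5 were lower and none higher (11 and 0 unadjusted). The 5 were snR37, snR35 and snR5, H/ACA rows, and snR41 and snR45, C/D rows, named after their values were seen. snR37, for example, had 15.1, 12.6 and 21.1 FPKM in stimulated and 115, 43.3 and 127 FPKM in unstimulated MATα-playing-a cells. It had 0, 18.98 and 0 FPKM in stimulated and 114, 201 and 49.1 FPKM in unstimulated MATa cells.

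Rows that lie in a line and are made from 1 precursor did not share their level. The 7 rows snR78, snR77, snR76, snR75, snR74, snR73 and snR72 lie within 1374 nt of chromosome XIII, and in yeast they are transcribed as a single precursor and cut apart. Of these, 4 were at 0 in all 12 libraries, while snR76 was above 0 in all of them. snR77, which guides U578 of 18S rRNA, had 0, 104 and 0 FPKM in stimulated and 127, 134 and 102 FPKM in unstimulated MATα-playing-a cells. MATa cells gave 0, 0 and 0 FPKM when stimulated and 221, 0 and 72.9 FPKM when unstimulated. In the cluster snR51, snR70 and snR41, within 543 nt of chromosome XVI, snR70 (164 nt) was above 0 throughout and snR41 (95 nt), a guide of A541 and G1126 in 18S rRNA, had 112, 129.6 and 139.7 FPKM in stimulated and 169, 190.2 and 184 FPKM in unstimulated MATα-playing-a cells. It had 0, 174 and 0 FPKM in stimulated and 215, 354 and 130.5 FPKM in unstimulated MATa cells. snR41 was lower in MATa cells (limma adjusted p = 0.00938). In MATα-playing-a cells its stimulated and unstimulated values did not overlap, yet the difference did not pass (-0.51 ± 1.52, limma adjusted p = 0.778). The fit uses a spread shared by all groups, which here includes the zeros of stimulated MATa libraries. The difference between the strains' responses did not pass (limma adjusted p = 0.425). snR128 and snR190, within 385 nt of chromosome X, differed as well: snR190 had 0, 0 and 27.6 FPKM in stimulated and 101, 49.6 and 52.5 FPKM in unstimulated MATα-playing-a cells. It had 0, 0 and 0 FPKM in stimulated and 24.4, 0 and 0 FPKM in unstimulated MATa cells. The rows of a cluster also differ in length, and its part in these differences was not tested.

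The 8 intron-encoded snoRNAs were set beside their host genes, since such snoRNAs are cut from the spliced intron and so share the host's transcription. Of the hosts, which code for proteins of the ribosome, translation factors, the IMP dehydrogenase Imd4 and the ribosome assembly GTPase Nog2, 7 of 8 were lower in MATα-playing-a and 8 of 8 in MATa cells; of the snoRNAs, 4 of 8 and 5 of 8 were lower. Of all rows, 39.1% were lower in MATα-playing-a and 38.1% in MATa cells, and the snoRNAs' share in MATα-playing-a cells was near that background. snR18, in EFB1 (translation elongation factor), had 311, 216 and 319 FPKM in stimulated and 407, 496 and 763 FPKM in unstimulated MATα-playing-a cells. It had 316, 334 and 368 FPKM in stimulated and 520.1, 568 and 592 FPKM in unstimulated MATa cells. Its log2 difference was -0.95 ± 0.21 in MATα-playing-a and -0.72 ± 0.21 in MATa cells, and that of EFB1 -0.84 ± 0.12 and -0.56 ± 0.12. snR191, in NOG2, had 27.95, 32.1 and 41.4 FPKM in stimulated and 54.4, 53.6 and 74.8 FPKM in unstimulated MATα-playing-a cells. It had 44.5, 32.99 and 20.4 FPKM in stimulated and 56.8, 45.7 and 77.2 FPKM in unstimulated MATa cells; its log2 differences were -0.83 ± 0.28 and -0.89 ± 0.28 beside -0.99 ± 0.10 and -1.10 ± 0.10 for NOG2 (MATα-playing-a, then MATa). EFB1 had 11898, 8593 and 11791 FPKM in stimulated and 18596, 19483 and 19226 FPKM in unstimulated MATα-playing-a cells, and NOG2 795, 894 and 908 FPKM in stimulated and 1486, 1875 and 1819 FPKM in unstimulated MATα-playing-a cells. EFB1 had 11004, 11851 and 12713 FPKM in stimulated and 15268, 18984 and 18463 FPKM in unstimulated MATa cells, and NOG2 832, 743 and 839.5 FPKM in stimulated and 1624, 1894 and 1664 FPKM in unstimulated MATa cells. Both snoRNAs and both hosts were lower in both strains. The call of snR191 was lost in 4 alternatives in each strain. In MATa cells these included leaving out stimulated or unstimulated replicate 3 (limma adjusted p = 0.0573 and 0.0626). In MATα-playing-a cells they included leaving out stimulated replicate 1 or 2 or unstimulated replicate 3 (limma adjusted p = 0.0692, 0.0505 and 0.0759). snR44, in RPS22B (a small-subunit ribosomal protein), had 429, 316 and 369 FPKM in stimulated and 454, 492 and 683 FPKM in unstimulated MATα-playing-a cells. It had 425, 398 and 411 FPKM in stimulated and 564, 649.9 and 725 FPKM in unstimulated MATa cells. It was lower in MATα-playing-a cells (-0.54 ± 0.15, limma adjusted p = 0.0088), where RPS22B was not past the threshold (0.25 ± 0.11, adjusted p = 0.0648), and lower in MATa cells (-0.64 ± 0.15) together with RPS22B (-0.37 ± 0.11). RPS22B had 4009, 4114 and 3609 FPKM in stimulated and 3443, 2763 and 3715 FPKM in unstimulated MATα-playing-a cells. It had 2962, 3483 and 2897 FPKM in stimulated and 4216, 3737 and 4101 FPKM in unstimulated MATa cells.

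snR39, in an intron of RPL7A (a large-subunit ribosomal protein), was the 1 member whose difference of responses passed the threshold. It had 170.2, 147 and 231 FPKM in stimulated and 432, 227 and 391 FPKM in unstimulated MATα-playing-a cells. In MATa cells it was listed at 0 in all 3 stimulated libraries, against 455, 290.01 and 341 FPKM in unstimulated ones. Its log2 difference was -0.91 ± 0.24 in MATα-playing-a (limma adjusted p = 0.00619), its fall in MATa cells passed as well (adjusted p = 2.32e-10), and the difference of the responses passed (adjusted p = 4.36e-07), as did that of stimulated MATα-playing-a minus stimulated MATa cells (adjusted p = 4.24e-09). RPL7A itself had 8097, 7327 and 8622 FPKM in stimulated and 12851, 12518 and 14912 FPKM in unstimulated MATα-playing-a cells. It had 8131, 8388 and 8640.2 FPKM in stimulated and 14149.5, 14487 and 14836 FPKM in unstimulated MATa cells. The host fell in both strains (-0.74 ± 0.08 and -0.79 ± 0.08; difference of responses 0.05 ± 0.11, limma adjusted p = 0.871). snR59, the related guide in RPL7B with the pairing stretch shown above, had 90.7, 146 and 0 FPKM in stimulated and 0, 0 and 95.96 FPKM in unstimulated MATα-playing-a cells. It had 0, 169.7 and 0 FPKM in stimulated and 84.2, 0 and 0 FPKM in unstimulated MATa cells. It was at 0 in 7 libraries and passed in neither strain, whereas RPL7B fell in both (-0.67 and -0.75). RPL7B had 4069, 3799.7 and 4392 FPKM in stimulated and 6253, 6120.5 and 7200.1 FPKM in unstimulated MATα-playing-a cells. It had 4261, 4308 and 4435 FPKM in stimulated and 7250.1, 7185 and 7491 FPKM in unstimulated MATa cells. snR54, in IMD4, had 0, 109.8 and 94.7 FPKM in stimulated and 212, 180.4 and 243 FPKM in unstimulated MATα-playing-a cells. It had 0, 0 and 0 FPKM in stimulated and 164, 299 and 148 FPKM in unstimulated MATa cells, and was lower in MATa cells (limma adjusted p = 0.000434; MATα-playing-a adjusted p = 0.0512; difference of responses 0.418). snR24, in ASC1, had 152, 183 and 201 FPKM in stimulated and 386, 257 and 313 FPKM in unstimulated MATα-playing-a cells. It had 148, 0 and 187 FPKM in stimulated and 236, 418 and 302 FPKM in unstimulated MATa cells, and did not pass in either strain. Stimulated and unstimulated values of snR24 did not overlap in either strain, but the stimulated MATa library at 0 widens the spread shared by all groups. Their hosts were lower in both strains, with log2 differences for IMD4 of -0.88 and -1.04, for ASC1 of -0.89 and -1.10 and for TEF4, the host of snR38, of -0.87 and -0.60 (MATα-playing-a, then MATa). IMD4 had 1644, 1609 and 1747 FPKM in stimulated and 2849.8, 3186 and 3198 FPKM in unstimulated MATα-playing-a cells. It had 1613, 1509 and 1623 FPKM in stimulated and 3129, 3624 and 3056 FPKM in unstimulated MATa cells. ASC1, a ribosome-associated protein, had 9434, 9275 and 9892 FPKM in stimulated and 17052, 16382 and 19683 FPKM in unstimulated MATα-playing-a cells. It had 9023, 8939 and 9415 FPKM in stimulated and 19253, 19368 and 20149 FPKM in unstimulated MATa cells. TEF4, an elongation factor subunit, had 3997, 2293 and 3663 FPKM in stimulated and 4841, 6063 and 6949 FPKM in unstimulated MATα-playing-a cells. It had 3267, 4017 and 4504 FPKM in stimulated and 4651, 6305 and 6982 FPKM in unstimulated MATa cells. snR38, in TEF4, had 54.3, 0 and 0 FPKM in stimulated and 0, 79.3 and 119 FPKM in unstimulated MATα-playing-a cells. It had 0, 0 and 0 FPKM in stimulated and 77.1, 0 and 128 FPKM in unstimulated MATa cells, and did not pass either.

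**Figure D5:**
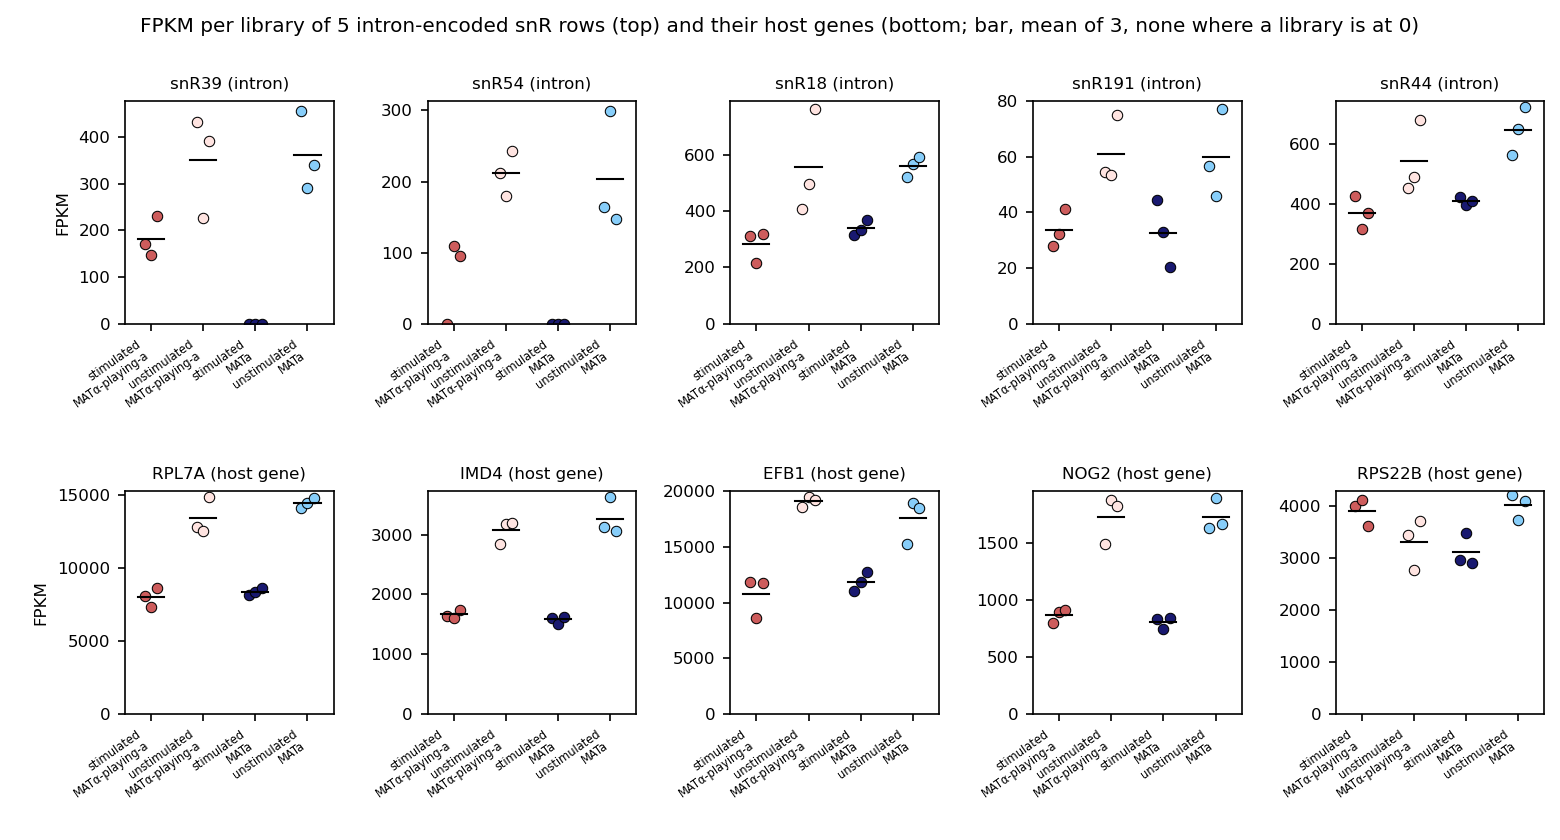
FPKM of 5 intron-encoded snoRNAs (top) and of their host genes (bottom) in each library; dots are libraries and bars the mean of 3, drawn where no library of the group was at 0. snR39 and snR54 are at 0 in the 3 stimulated MATa libraries, where their hosts RPL7A and IMD4 were at 8131 to 8640.2 FPKM and at 1509 to 1623 FPKM.

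Unstimulated cells of the strains gave no called difference in these rows. No member passed in either direction (limma; 1 was higher and 0 lower at an unadjusted p below 0.05), where 0.953% of all rows did, and the median log2 difference, MATα-playing-a minus MATa, was -0.13. Between stimulated cells snR39 alone passed, being higher in MATα-playing-a cells, while 15 members were higher and 0 lower at an unadjusted p below 0.05; 1.56% of all rows were higher and 0.651% lower. In the difference of the responses, MATα-playing-a minus MATa, snR39 again was the 1 member that passed, where 0.409% of all rows were higher and 0.0757% lower, and the members' median was 0.42. Among the 23 rows above 0 throughout, that difference was positive in 20 and negative in 3, between -0.58 and 0.76, and none passed, where 0.431% of all rows above 0 in all libraries did. Over all rows its median was 0.02. It was 0.28 in other rows under 200 nt and 0.13 in other rows of 200 to 1100 nt, where 821 of 3085 were negative. Of all rows above 0 in all libraries, 2945 of 6270 were negative. Without replicate 2 of stimulated MATa cells, 4 members passed as higher between stimulated cells and 4 in the difference of the responses.

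The core proteins of both kinds of snoRNP were lower after α-factor with 1 exception. All 4 C/D core proteins were lower in MATα-playing-a and 3 of 4 in MATa cells, and all 4 H/ACA core proteins were lower in both strains. Of all rows, 39.1% were lower in MATα-playing-a and 38.1% in MATa cells. NOP1, the methyltransferase, had 3355, 2889.97 and 3382 FPKM in stimulated and 6726, 7180.4 and 7228 FPKM in unstimulated MATα-playing-a cells. It had 3323, 3298 and 3542 FPKM in stimulated and 6054, 6944 and 6777 FPKM in unstimulated MATa cells (log2 differences -1.14 and -0.96). NOP58, a scaffold of the C/D particle, had 1653, 1594 and 1824 FPKM in stimulated and 2976, 3539 and 3286 FPKM in unstimulated MATα-playing-a cells. It had 1731, 1697 and 1785 FPKM in stimulated and 3046, 3296 and 3231 FPKM in unstimulated MATa cells (log2 differences -0.95 and -0.88). SNU13, which also binds U4 snRNA, had 4399, 2229 and 3488 FPKM in stimulated and 4609.9, 5284 and 5743 FPKM in unstimulated MATα-playing-a cells. It had 2839, 3824 and 3998 FPKM in stimulated and 3751, 5687 and 6231 FPKM in unstimulated MATa cells. The gene was lower in MATα-playing-a (-0.68 ± 0.25, limma adjusted p = 0.0304) and did not pass in MATa cells (-0.54 ± 0.25, adjusted p = 0.0766). NOP56, the other scaffold of the C/D particle, had 1826, 1791 and 1738 FPKM in stimulated and 2463, 2733 and 3022 FPKM in unstimulated MATα-playing-a cells. It had 1725, 1871 and 1756 FPKM in stimulated and 2944, 3055 and 3285 FPKM in unstimulated MATa cells, lower in both (-0.61 and -0.79). CBF5, the pseudouridine synthase, had 2081, 2160.1 and 2331 FPKM in stimulated and 3603, 4071 and 4071 FPKM in unstimulated MATα-playing-a cells. It had 2327, 2115 and 2309 FPKM in stimulated and 3779, 4089 and 3994 FPKM in unstimulated MATa cells (log2 differences -0.84 and -0.81). GAR1, its partner in the H/ACA particle, had 2434, 2376 and 2079 FPKM in stimulated and 4539, 4262 and 5018 FPKM in unstimulated MATα-playing-a cells. It had 2195, 2433 and 2206 FPKM in stimulated and 5068, 4954 and 5538 FPKM in unstimulated MATa cells (log2 differences -1.004 and -1.19). NHP2, which binds the RNA, had 2680.1, 3077 and 2501 FPKM in stimulated and 4455, 4507 and 4831 FPKM in unstimulated MATα-playing-a cells. It had 2619, 2699 and 2363 FPKM in stimulated and 5762, 4706 and 4961 FPKM in unstimulated MATa cells. NOP10, which binds Cbf5, had 3251, 3624 and 2917 FPKM in stimulated and 4530.2, 4477 and 5255 FPKM in unstimulated MATα-playing-a cells. It had 2851, 2945 and 2827 FPKM in stimulated and 6148, 4465 and 5221 FPKM in unstimulated MATa cells. These had log2 differences of -0.74 and -0.54 in MATα-playing-a and -1.003 and -0.86 in MATa cells.

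Genes that assemble and trim these RNAs were mostly lower too. Of 10 snoRNP assembly genes, 8 were lower and 1 higher in each strain. SRP40, a nucleolar chaperone of these particles, had the largest fall of them (-1.24 ± 0.07 in MATα-playing-a and -1.38 ± 0.07 in MATa cells). The members that rose were TAH1 in MATα-playing-a (0.36, limma adjusted p = 0.0261) and PIH1 in MATa cells (0.24, adjusted p = 0.0148), both of the R2TP chaperone complex. Of 16 genes for cutting, trimming and capping, 13 were lower and 1 higher in MATα-playing-a and 12 lower and 1 higher in MATa cells. TGS1, which forms the trimethylguanosine cap of snRNAs and snoRNAs, had 117, 137 and 108 FPKM in stimulated and 381, 396 and 377 FPKM in unstimulated MATα-playing-a cells. It had 89.8, 124 and 94.7 FPKM in stimulated and 399, 360.3 and 384 FPKM in unstimulated MATa cells. Its groups were widely apart (-1.67 ± 0.12 and -1.89 ± 0.12, limma adjusted p = 3.21e-07 and 1.23e-07). RNT1, the RNase III that cuts snoRNA precursors, was lower in both strains (-0.83 in MATα-playing-a and -0.95 in MATa cells), and AIR1, a subunit of a nuclear polyadenylation complex, was higher in both (0.26 and 0.41). Of 14 Sm and Lsm protein genes, 7 were lower and 1 higher in MATα-playing-a and 11 lower in MATa cells. The higher one was LSM2 (0.30, limma adjusted p = 0.023), which was lower in MATa cells (-0.28, adjusted p = 0.0324), without a difference of responses past the threshold (adjusted p = 0.162). These counts stand beside the 39.1% and 38.1% of all rows that were lower in MATα-playing-a and MATa cells.

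Of 5 structured RNAs outside the snR rows, 3 were lower in MATα-playing-a and 4 in MATa cells, where 39.1% and 38.1% of all rows were lower. TLC1, the telomerase RNA, had 119.6, 107 and 117 FPKM in stimulated and 540.4, 591 and 579 FPKM in unstimulated MATα-playing-a cells. It had 93.04, 103 and 104 FPKM in stimulated and 478, 486 and 541 FPKM in unstimulated MATa cells. It was lower in both strains (-2.30 ± 0.07 and -2.31 ± 0.07). SCR1, the RNA of the signal recognition particle, had 20.9, 26.5 and 37.6 FPKM in stimulated and 86.8, 57.6 and 88.1 FPKM in unstimulated MATα-playing-a cells. It had 38.4, 38.1 and 42.5 FPKM in stimulated and 68.04, 141 and 63.4 FPKM in unstimulated MATa cells, and was lower in both (limma adjusted p = 0.00117 and 0.00735). NME1, the RNA of RNase MRP, which acts in rRNA processing, had 10.00, 17.2 and 0 FPKM in stimulated and 45.8, 36.1 and 36.2 FPKM in unstimulated MATα-playing-a cells. It had 0, 0 and 16.7 FPKM in stimulated and 47.9, 61.8 and 34.5 FPKM in unstimulated MATa cells. RPR1, the RNA of RNase P, had 14.8, 27.6 and 12.8 FPKM in stimulated and 35.8, 32.9 and 49.9 FPKM in unstimulated MATα-playing-a cells. It had 0, 23.2 and 32.3 FPKM in stimulated and 52.00, 48.7 and 54.4 FPKM in unstimulated MATa cells. Both were lower in MATa cells (adjusted p = 0.00743 and 0.0453 by limma) and did not pass in MATα-playing-a cells (adjusted p = 0.0514 and 0.341).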

How the data were processed

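Total RNA was sequenced in 12 libraries multiplexed in 1 lane, per the labels' protocols. The deposited values are FPKM per gene, made by the authors with CASAVA 1.8.2, TopHat 1.1.4 and Cufflinks 0.9.3 per the submitters' processing notes; the genome build is not given in the sources used here. FPKM times length summed to 5.02 to 6.23 times what the unit allows, so a further scaling of unknown kind was applied, and neither read totals nor counting errors can be had from these values. The sum was 5.02 to 5.22 times in stimulated and 5.68 to 6.23 times in unstimulated libraries. A short or failed row can be listed at 0; such rows are given per library, with no mean or fold.

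Rows with a mean of at least 1 FPKM (6608 of 7126) were tested with limma 3.58.1 in R 4.3.3 on log2(FPKM + 1), with 4 group means, moderated variances with a trend, and Benjamini-Hochberg adjustment over all of them at 0.05. A log2 difference on this scale understates the change of low rows above 0. For rows listed at 0 it can overstate the change, since the smallest member value above 0 was 10.1 FPKM. Each row has 1 spread shared by all groups, so zeros scattered within a group widen the standard errors of every comparison. The procedure was tested on simulated data. Replicates are biological per the labels; p-values measure the spread between these samples. Stimulated cells came from the remainder of a culture, but the labels do not tie replicate numbers to cultures. Members and gene lists were chosen with earlier results of these data known. The rows named were the snRNAs, U3, U14, snR30 and snR10, every row above 0 in all libraries, up to 8 called rows per direction and comparison with the largest difference and a group mean of at least 10 FPKM, the intron rows with their hosts, and the core proteins; snR5, snR35, snR37, snR41, snR45, snR77 and the other listed genes with values were chosen after their values were seen. Alternatives changed the constant added, the filter, the scaling, the libraries fitted, the fold required and the replicates kept.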

Additional observations from a re-analysis of the deposited data

Results flagged for a closer look

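In a test of the difference itself (limma interaction, adjusted p = 4.36e-07), the fitted response of snR39 differed between the strains. The difference, MATα-playing-a minus MATa, was 7.57 on the log2(FPKM + 1) scale. Its size depends on the constant added, since snR39 was listed at 0 in all 3 stimulated MATa libraries: it was 10.89 with 0.1 added and 4.32 with 10 added. The fitted value is therefore no bound on a fold. Whether a 0 for an 89 nt row is a failed estimate was not tested. Equal zeros add no spread to the fit, so the p-value does not weigh that possibility.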

How the results depend on the processing

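No result reversed. The count of members lower in MATa cells, 38, was 21 among rows of at least 200 nt and 21 among rows above 0 in all libraries, both sets chosen after seeing the data, refitted alone and smaller by construction, and 35 to 42 with 1 replicate left out. Its median of -2.17 was -3.19 with 0.1 added, -1.36 with 10 added, -1.79 after quantile scaling, -1.63 in rows of at least 200 nt and -0.98 in rows above 0 throughout, and -2.85 to -2.07 with 1 replicate left out. The count of higher members there was 0 to 1, being 1 without replicate 2 of unstimulated MATa cells. In MATα-playing-a cells the 28 lower members were 15 and 16 in the same sets and 19 to 31 with 1 replicate left out, and the 2 higher ones were 1 with a filter at 10 FPKM, with the compared libraries fitted alone, with a fold of 2 required and in both sets, and 1 to 3 with 1 replicate left out. The median of -1.46 was -1.04 with 10 added, -1.11 and -0.83 in the sets, and -1.52 to -0.92 with 1 replicate left out. Between stimulated strains the 1 higher member was 2 with the compared libraries alone, 0 in both sets and 1 to 4 with 1 replicate left out; in the difference of responses it was 0 in both sets and 1 to 4, and the median of 0.42 ranged from 0.36 to 1.13 (without replicate 3 of unstimulated MATα-playing-a cells). With the replicate number as a block, 33 members were lower in MATα-playing-a and 40 in MATa cells; samples with the same number correlated between -0.21 and 0.25, so the numbers were not taken as pairs. With a fold of 2 required, 19 and 28 were lower. Scaling by median ratios moved the median of all rows to about 0.00 and left 26 and 36. Of 65 named calls, 32 held under every alternative; those lost most often were snR46 (11 alternatives), snR84 (7), snR34 (6) and snR128 (5) in MATα-playing-a cells and snR11 (9) and snR9 (5) in MATa cells. Unknown depth limits every row near 0.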
